A study of Mus musculus with 6 samples.

Results

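Loss of Ikaros zinc finger 4 was compared with wild type in sorted IgM-positive B cells of mouse bone marrow. The comparison used 4 of the 6 libraries in the series, 2 from mice labelled Ikaros_ZnF4-/- (the ZnF4 mutant) and 2 from wild-type mice. All animals were on the C57BL/6 background and 6 weeks old, and the labels name no treatment of the mice. The remaining 2 libraries came from mice labelled Ikaros_ZnF1-/- (the ZnF1 mutant), which lack zinc finger 1 of the same protein. Their values are given for some genes only. A change given without them is therefore not shown to be particular to finger 4. The labels do not say how the finger was removed, in which cells it is lost, or whether a library came from 1 mouse or from a pool. Values are RPKM, which scale the reads of a transcript by its length and by the size of the library. Of 22098 gene names in the table, the 10322 with a mean of at least 1 RPKM over the 6 libraries were tested. A fold change is a difference on the log2(RPKM + 0.5) scale, so it understates the change of weakly expressed genes. A gene is said to have risen or fallen only where limma's moderated test, adjusted over all tested genes by the Benjamini-Hochberg method, gave p under 0.05.

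Ikaros, the product of Ikzf1, is a DNA-binding regulator of lymphocyte development that can silence or sustain its targets, in part through the NuRD chromatin remodelling complex. The inner fingers of its N-terminal cluster make the core contact with DNA, and the outer fingers, of which finger 4 is one, affect which sites are bound. B cells with IgM on their surface have assembled an antigen receptor, and as they mature they normally shut off the surrogate light chain, which stands in for the light chain at the pre-B stage, and the Rag recombinase genes.

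B cell markers were abundant and T cell markers scarce, while granulocyte markers were present. Cd79b, which signals for surface IgM, ranged from 1604 to 2227 RPKM over the 6 libraries, and Cd3e, a T cell receptor chain, from 0.2 to 0.7. S100a9, a granulocyte protein gene, was at 179 and 247 RPKM in wild type and at 671 and 805 in the ZnF4 mutant. In the ZnF1 mutant S100a9 was at 576 and 3135. Ikzf1 was at 177 and 179 RPKM in wild type and at 287 and 244 in the mutant (log2 fold change 0.58, SE 0.16, adjusted p = 0.111), which did not pass, and 1 value per transcript cannot show whether the sequence for finger 4 was missing. Sex differed between the libraries of the mutant: Xist, which coats the inactive X, was at 66.8 RPKM in ZnF4 replicate 1 and listed at 0 in replicate 2, and the Y-linked gene Ddx3y was listed at 0 in replicate 1 and at 16.6 in replicate 2. Both wild-type libraries had Xist, at 39.6 and 50.7 RPKM, and Ddx3y listed at 0. The labels do not say whether the 2 wild-type libraries came from separate animals, so a p-value reflects the spread among these samples alone, which may be technical. In bulk RNA, fewer cells of a type and less RNA per cell cannot be told apart.

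The pre-B cell receptor genes Igll1 and Vpreb1 are shown first because they are neighbours that rose together, with Rag1 and Ifit3 as genes that fell and Tmem176a as one of the steepest rises. Each sequence runs from 250 bases before to 50 bases after the annotated start, 5′ to 3′ on the strand of the gene, from the RefSeq annotation of GRCm38.p6. The windows are chr16:16863936-16864235 on the minus strand for Igll1, chr16:16869206-16869505 on the minus strand for Vpreb1, chr2:101649483-101649782 on the minus strand for Rag1, chr6:48841406-48841705 on the plus strand for Tmem176a and chr19:34583279-34583578 on the plus strand for Ifit3.
Igll1: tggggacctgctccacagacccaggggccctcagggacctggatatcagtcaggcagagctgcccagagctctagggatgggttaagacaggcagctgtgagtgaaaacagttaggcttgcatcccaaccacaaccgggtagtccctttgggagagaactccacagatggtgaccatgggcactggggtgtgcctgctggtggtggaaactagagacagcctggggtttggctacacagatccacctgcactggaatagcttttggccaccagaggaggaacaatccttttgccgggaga
Vpreb1: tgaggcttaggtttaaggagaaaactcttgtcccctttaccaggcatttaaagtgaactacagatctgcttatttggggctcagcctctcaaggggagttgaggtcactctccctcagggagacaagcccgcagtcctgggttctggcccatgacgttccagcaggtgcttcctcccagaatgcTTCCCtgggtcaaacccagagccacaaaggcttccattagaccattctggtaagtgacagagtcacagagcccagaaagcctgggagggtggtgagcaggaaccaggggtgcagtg
Rag1: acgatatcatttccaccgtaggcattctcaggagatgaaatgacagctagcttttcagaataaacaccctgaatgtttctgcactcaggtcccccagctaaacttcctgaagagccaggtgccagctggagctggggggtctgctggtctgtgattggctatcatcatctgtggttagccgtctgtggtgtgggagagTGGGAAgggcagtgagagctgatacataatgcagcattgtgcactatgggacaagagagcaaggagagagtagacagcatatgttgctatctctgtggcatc
Tmem176a: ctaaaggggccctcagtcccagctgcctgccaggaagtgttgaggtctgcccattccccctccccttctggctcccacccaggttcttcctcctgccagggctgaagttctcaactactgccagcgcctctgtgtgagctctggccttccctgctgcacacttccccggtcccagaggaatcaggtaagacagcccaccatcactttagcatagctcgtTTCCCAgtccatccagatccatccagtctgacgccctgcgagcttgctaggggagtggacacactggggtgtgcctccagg
Ifit3: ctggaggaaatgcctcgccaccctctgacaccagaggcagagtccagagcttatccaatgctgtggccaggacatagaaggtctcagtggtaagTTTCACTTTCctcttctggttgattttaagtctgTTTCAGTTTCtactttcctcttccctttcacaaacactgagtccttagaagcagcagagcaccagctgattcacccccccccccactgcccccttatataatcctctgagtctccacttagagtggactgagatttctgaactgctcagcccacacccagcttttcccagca
Capitals mark a match on either strand to TGGGAA, the core letters of Ikaros binding sites, in Rag1 and Tmem176a, and to its shorter part GGGAA in Vpreb1. In Ifit3 they mark 2 copies of GAAA that are 2 bases apart, the core of the element through which interferon acts on its target genes. Rag1 holds TGGGAA from position -52 and Tmem176a holds its reverse complement from -31, counting the annotated start as 0. Vpreb1 holds the reverse complement of GGGAA from -66, and no GGGAA was found in this window of Igll1. Ifit3 holds the reverse complement of this pair from -156 and again from -122. Each window was marked for 1 motif only, so unmarked letters can hold another. The Ifit3 window also holds the reverse complement of TGGGAA, unmarked, near its end. Unmarked reverse complements of GGGAA lie in the Tmem176a and Ifit3 windows as well. Tmem176a has 2 starts in the table, and the window that holds TGGGAA is the one shown. Of the 32851 promoters in the RefSeq table, 25.6% hold TGGGAA, 62.7% hold GGGAA, which every TGGGAA contains, and 3.44% hold the GAAA pair. A match is a description of letters and not a bound site. The table had a promoter for 144 of the 184 genes that rose and 108 of the 146 that fell, under 80% of each, so no share over these genes is given.

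Loss of finger 4 changed 330 of 10322 genes (3.2%), of which 184 rose (1.78%) and 146 fell (1.41%). The genes that rose had lower levels in wild-type B cells than the genes that fell. The median wild-type level was 3.15 RPKM for the genes that rose, 16.0 for those that fell and 12.2 for all tested genes. In the mutant, the genes that rose had a median of 9.73 RPKM and those that fell one of 6.4. Wild-type level is part of the fold change, so sorting genes by their change itself favours this order. Under 1 RPKM in wild type, 41 of 344 tested genes rose (11.9%) and 0 fell in limma, where 1 was lower at an unadjusted p under 0.05. From 100 RPKM upward, 1 of 406 rose (0.246%), which was Fgd2, and 10 fell (2.46%). A gene of low wild-type level entered the test only where another genotype raised its mean to 1 RPKM, so the lowest class favours rises by its construction. The summed level of granulocyte and monocyte markers was also higher in both mutant libraries, with 0 of 22 called in limma, and is given with the other cell types.

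Rises reached larger sizes than falls. The median size of the log2 fold change was 1.37 among rises and 1.15 among falls, and the smallest changes that passed were 0.62 and 0.57. A change of at least 2 on the log2 scale was reached by 40 of the 184 rises and 12 of the 146 falls, and one of at least 3 by 10 rises and 0 falls. These counts hold for this scale only, since its offset of 0.5 RPKM limits changes to and from values near 0. Lrrc32, for example, went from a mean of 3.45 to 0.1 RPKM with a log2 fold change of -2.68. Over all tested genes the median change was -0.02, and 47.2% of genes lay above 0. Of 222 tested genes with both wild-type libraries under 1 RPKM, 34 rose, and 19 of these reached at least 3 RPKM in both mutant libraries. In the other direction, 125 tested genes had both mutant libraries under 1 RPKM. Of these 17 fell, and 9 of the 17 were at 3 RPKM or more in both wild-type libraries. Genes so low in 1 genotype passed the filter only where another was higher, which favours both counts.

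**Figure D1:**
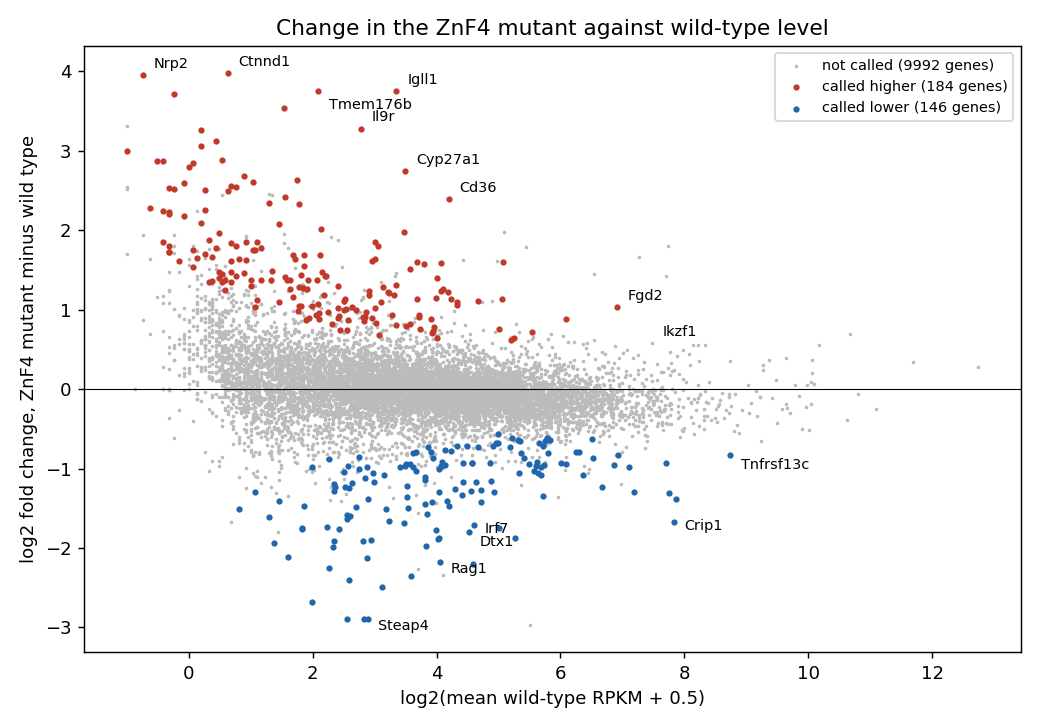
Log2 fold change of the ZnF4 mutant against wild type (vertical axis) for each of the 10322 tested genes by the log2 of its mean wild-type RPKM + 0.5 (horizontal axis), with rises in red and falls in blue. The rises lie farther to the left than the falls, an order that sorting genes by their change itself favours. Of the rises 10 exceed 3 on the vertical axis, which 0 of the 146 falls do downward. The offset of 0.5 RPKM limits the size of changes to and from values near 0.

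On the scale of the test, log2(RPKM + 0.5), 71 of all tested genes lay over 2-fold apart between the ZnF4 libraries, against 111 between the wild-type libraries, and 0 of the 330 called genes were among those 71. In RPKM itself 5 called genes lay over 2-fold apart between the ZnF4 libraries. The widest gap among called genes was 0.96 on the log2(RPKM + 0.5) scale, in 4930515G16Rik, a gene without a known role, at 6.3 and 3 RPKM in the mutant and at 0.6 and 0.7 in wild type. The next widest gaps were those of Kcnk5 (1.8 and 3.9 RPKM in the mutant), a potassium channel gene, Rhbdf1 (6.2 and 12.3), an inactive rhomboid gene, Il9r (43 and 80.8) and Pcp4 (8.3 and 15.6), a calmodulin-binding protein gene. Kcnk5 and 4930515G16Rik did not pass with a term for sex (adjusted p = 0.0616 and 0.0774). Their log2 fold changes were -1.69 and 2.18 with the term, against -1.51 and 2.09 without it. The model with the term left 2 residual degrees of freedom against 3. A call lost there therefore does not show that sex accounts for a change, which was not tested. In all 330 genes the change exceeded the gap between the mutant libraries, and in 285 it was over 3 times that gap. This follows in part from the test, which asks for a small spread.

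The genes on which the mutant libraries disagreed included sex-linked genes, short RNA entries and some ribosomal protein genes. Of the 71, 19 were higher in replicate 1 and 52 in replicate 2. Xist and its antisense partner Tsix were on the replicate 1 side, Tsix at 20.3 RPKM and listed at 0 in replicate 2. The Y-linked genes Eif2s3y, Ddx3y, Kdm5d and Uty were on the other, with Eif2s3y listed at 0 in replicate 1 and at 49.1 RPKM in replicate 2. Tsc22d3, a glucocorticoid target, was at 49.4 and 133 RPKM in the mutant and at 176 and 74.6 in wild type. Ddit4, a brake on mTOR signalling, was at 12 and 41 RPKM in the mutant and at 55.8 and 18.4 in wild type. For Tsc22d3 and Ddit4 the wild-type libraries lay over 2-fold apart too.

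**Figure D2:**
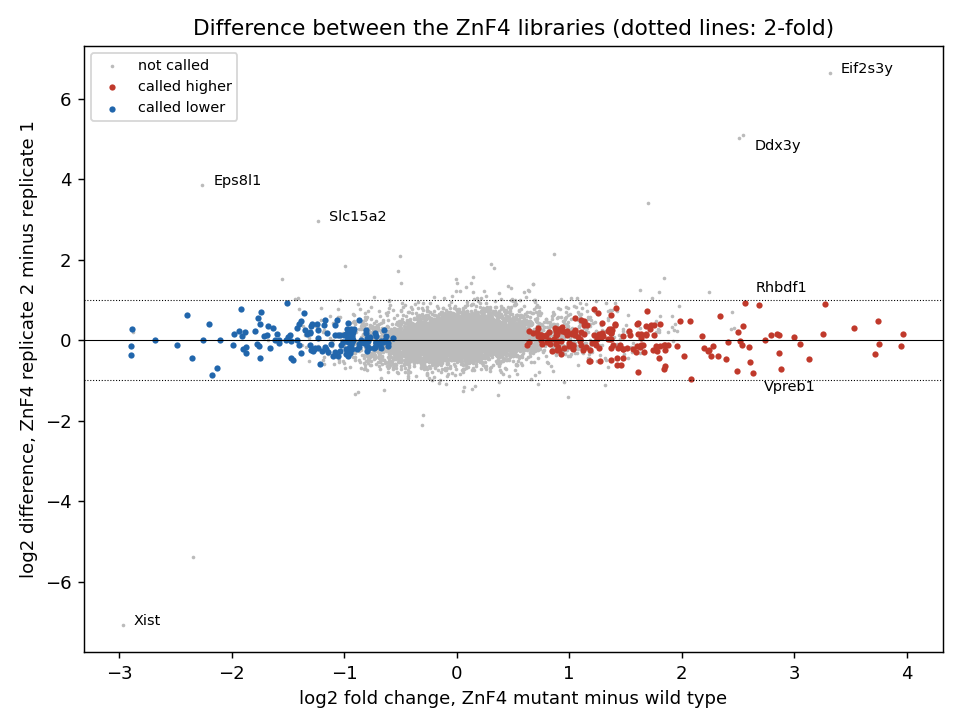
Difference between the 2 ZnF4 libraries on the log2(RPKM + 0.5) scale (vertical axis) by the log2 fold change against wild type (horizontal axis), 1 point per tested gene, with dotted lines at 2-fold. All 330 called genes (red higher, blue lower) lie between the dotted lines, while Xist and Y-linked genes lie farthest from 0.

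The surrogate light chain genes Igll1 and Vpreb1 rose. Igll1, which encodes its lambda5 part, was at 5.7 and 13.7 RPKM in wild type and at 130.4 and 121 in the mutant (log2 fold change 3.75, SE 0.37, adjusted p = 0.00549). Vpreb1, which encodes the other part, was at 1.9 and 3.8 RPKM in wild type and at 25.9 and 14.6 in the mutant (log2 fold change 2.64, SE 0.36, adjusted p = 0.0116). All mutant values lay far above the wild-type ones, although the wild-type libraries themselves lay apart for both genes. Both also stood above the ZnF1 mutant, from which the ZnF4 mutant differed in 493 of the 10322 genes (4.78%). There Igll1 was at 18.5 and 28.6 and Vpreb1 at 6.1 and 4.2 (ZnF4 minus ZnF1 2.42 with adjusted p = 0.0153 for Igll1 and 1.84 with adjusted p = 0.0325 for Vpreb1). Vpreb2, a near-identical copy of Vpreb1 with which reads may be shared, was under 1 RPKM in all 4 libraries and was not tested.

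Kit, the stem cell factor receptor of progenitors, was at 0.3 and 0.7 RPKM in wild type and at 6 and 6.6 in the mutant (log2 fold change 2.79, SE 0.52, adjusted p = 0.0361). Its call ended with a term for sex in the model (adjusted p = 0.0851). Of the 12 tested genes of the pre-B and progenitor list, these 3 rose and 1 fell, against 3.2% of all tested genes in either direction. The one that fell was Bst1, a surface enzyme of early B lineage and stromal cells, at 15.9 and 16.1 RPKM in wild type and at 6.5 and 5.9 in the mutant (log2 fold change -1.30, SE 0.19, adjusted p = 0.0162). Bst1 was low in the ZnF1 mutant too, at 5.9 and 8.8 RPKM (ZnF4 minus ZnF1 -0.20 with adjusted p = 0.619). Other genes of early B cells were not called: Vpreb3 was at 581 and 612 RPKM in wild type and at 549.5 and 558 in the mutant, Il7r, the interleukin 7 receptor, at 14.8 and 11.5 RPKM in wild type and at 19.9 and 12.3 in the mutant, and Flt3, a receptor of earlier progenitors, at 0.6 and 1 RPKM in wild type and at 0.7 and 1.1 in the mutant. Cd93 went from 41.5 and 42.4 to 33.9 and 22.1 RPKM (log2 fold change -0.61, adjusted p = 0.164) and did not pass. Lef1 went from 7.5 and 9.8 to 6.7 and 4.7 (log2 fold change -0.57, adjusted p = 0.212) and did not either. Both mutant libraries lay below both wild-type ones in 5 of the 12 and above them in 3, against 27.2% and 23.1% of all tested genes. The list's median change was -0.18.

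The recombinase gene Rag1 went the other way. Rag1, a subunit of the recombinase that cuts antigen receptor genes, was at 14.5 and 17.6 RPKM in wild type and at 4.4 and 2.2 in the mutant (log2 fold change -2.18, SE 0.29, adjusted p = 0.0109), and at 12.3 and 9.2 in the ZnF1 mutant (ZnF4 minus ZnF1 -1.62 with adjusted p = 0.0247). Rag2, its partner and neighbour, was at 1.4 and 1.8 RPKM in wild type and at 0.7 and 0.3 in the mutant (log2 fold change -1.09, SE 0.30, adjusted p = 0.11), which did not pass. Dntt, the polymerase that adds bases at the joins, was at 2.1 and 11.1 RPKM in wild type and at 0.2 and 0.3 in the mutant. Its log2 fold change of -2.88 had an adjusted p of 0.0514, just outside the threshold, and its wild-type libraries lay over 2-fold apart. Without wild-type replicate 1 the change of Dntt was -3.95 and passed (adjusted p = 0.0262), and without wild-type replicate 2 it was -1.80 and did not (adjusted p = 0.0868). Dntt stood at 13.5 and 17.7 RPKM in the ZnF1 mutant, and this difference between the mutants passed (ZnF4 minus ZnF1 -4.41 with adjusted p = 0.00945). The log2 fold changes of the end-joining genes ran from -0.39 for Xrcc6 (adjusted p = 0.175), which encodes Ku70, to 0.35 for Prkdc (adjusted p = 0.293), with Lig4 at -0.27 and Xrcc4 at 0.06. Rag1 was the 1 member of 11 tested that passed, against 3.2% of all tested genes.

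Catenin p120, encoded by Ctnnd1, had the largest log2 fold change of all called genes on the log2(RPKM + 0.5) scale, 3.97 against 3.95 for Nrp2, an order that turned with a pseudocount of 0.1 RPKM (4.38 against 5.47). It binds the tails of cadherins and steadies them at the cell surface, and its level was 1 and 1.1 RPKM in wild type and 22.5 and 25.2 in the mutant (log2 fold change 3.97, SE 0.18, adjusted p = 0.000571). The ZnF1 libraries were at 2.6 and 3.4 RPKM, and finger 4 loss stood above finger 1 loss (ZnF4 minus ZnF1 2.81 with adjusted p = 0.00101). Ctnna1, or alpha catenin, which links cadherin complexes to actin, was at 16.2 and 14.6 RPKM in wild type and at 36.7 and 32.8 in the mutant (log2 fold change 1.15, SE 0.14, adjusted p = 0.00833). Vcl, or vinculin, an actin linker that alpha catenin recruits, fell from 26.6 and 22.3 to 11.4 and 9.8 RPKM (log2 fold change -1.17, SE 0.15, adjusted p = 0.0106). In all, 2 of 15 tested genes of the catenin, cadherin and focal adhesion list rose and 1 fell, against 1.78% and 1.41% of all tested genes. The median of the list was -0.09. Of 9 tested integrin genes 0 passed in limma, and 2 had an unadjusted p under 0.05, as 17.4% of all tested genes did. Nearest to the threshold there was Itgb1, at 17 and 14.9 RPKM in wild type and at 24.9 and 29 in the mutant (adjusted p = 0.0577).

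Guidance receptors moved in both directions. Nrp2, a neuropilin that serves semaphorins and vascular endothelial growth factor, was at 0.1 and 0.1 RPKM in wild type and at 9.3 and 8.3 in the mutant (log2 fold change 3.95, SE 0.27, adjusted p = 0.00275). The related Nrp1 was at 0.4 and 0.3 RPKM in wild type and at 4.4 and 4.3 in the mutant (log2 fold change 2.51, SE 0.33, adjusted p = 0.0104). In the ZnF1 libraries Nrp2 was at 0.1 and 0.3 and Nrp1 at 0.4 and 1.1, and both stood lower there (ZnF4 minus ZnF1 3.74 with adjusted p = 0.00158 for Nrp2 and 2.01 with adjusted p = 0.0185 for Nrp1). Sema4a, a membrane semaphorin, was at 1.3 and 1.8 RPKM in wild type and at 14.5 and 9.8 in the mutant (log2 fold change 2.61, SE 0.53, adjusted p = 0.047), and Plxnc1, a plexin receptor, at 12 and 9.8 RPKM in wild type and at 18.3 and 20 in the mutant (log2 fold change 0.79, SE 0.14, adjusted p = 0.0339). The plexins Plxnd1 (11.5 and 15.6 RPKM in wild type, 5.5 and 3.8 in the mutant) and Plxnb2 (11.9 and 12.6, then 6 and 5.5) fell, as did Plxdc1 (3.6 and 5.5, then 0.8 and 0.7), which carries a plexin-like domain but is not a plexin. Of the 12 tested members 4 rose and 3 fell, against 1.78% and 1.41% of all tested genes, with a median of 0.30. Sema5a, a semaphorin outside the list, rose from 0.9 and 1 to 13.2 and 7.8 RPKM (log2 fold change 2.88, SE 0.32, adjusted p = 0.00621). With a term for sex Sema4a, Plxnc1, Plxnd1 and Plxnb2 no longer passed (adjusted p = 0.145, 0.1, 0.052 and 0.053). Sema4a did not pass with quantile normalization either (adjusted p = 0.0641), and it stood at 3.2 and 12.6 RPKM in the ZnF1 libraries. The short entry Mir1903, a miRNA gene that rose, lies inside the annotated span of Nrp1, so its reads cannot be told apart from those of Nrp1.

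Several further genes went from near silence to clear expression. Prox1, a homeobox factor known from lymphatic vessels, was listed at 0 in both wild-type and both ZnF1 libraries and was at 3.4 and 3.6 RPKM in the mutant (adjusted p = 0.00552). Apba1, an adaptor known from neurons, went from 0.3 and 0.4 to 12.1 and 9.4 RPKM (log2 fold change 3.72, SE 0.30, adjusted p = 0.00532). Rab3b, a GTPase of vesicle release, went from 0.2 and 0.3 to 5.6 and 4.4 (log2 fold change 2.87, SE 0.31, adjusted p = 0.00616). Cyp4f16, a cytochrome P450, went from 0.6 and 0.7 to 9.9 and 11.1 RPKM (log2 fold change 3.26, SE 0.23, adjusted p = 0.00275). Genes of the cytoskeleton were among them: Rnd3, a small GTPase, was at 0.5 and 1.2 RPKM in wild type and at 12.9 and 9.2 in the mutant (log2 fold change 3.13), and Pls3, an actin bundler, at 0.4 and 0.7 RPKM in wild type and at 6.6 and 7.4 in the mutant (log2 fold change 2.85). All 6 of them, Prox1, Apba1, Rab3b, Cyp4f16, Rnd3 and Pls3, also stood above the ZnF1 mutant in the direct comparison, with adjusted p between 0.00209 and 0.0143.

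Other genes that rose encode membrane proteins and enzymes. Tmem176b was at 5.1 and 2.4 RPKM in wild type and at 45.4 and 63.4 in the mutant (log2 fold change 3.75, SE 0.41, adjusted p = 0.00616), and Tmem176a, its neighbour and relative, at 3.4 and 1.4 RPKM in wild type and at 27.8 and 34.6 in the mutant (log2 fold change 3.53, SE 0.38, adjusted p = 0.00616). Their annotated spans overlap and the labels do not state a strand, so reads in the overlap cannot be assigned to one of them. Cyp27a1, the sterol 27-hydroxylase, was at 12.1 and 9.4 RPKM in wild type and at 74.1 and 74.4 in the mutant (log2 fold change 2.74, SE 0.15, adjusted p = 0.00104), with mutant libraries closer to each other than the wild-type ones. Cd36, a scavenger receptor for lipids that also marks marginal zone B cells, was at 16.2 and 19.4 RPKM in wild type and at 112 and 81.1 in the mutant (log2 fold change 2.40, SE 0.23, adjusted p = 0.00549). Cd300c, an activating receptor of leukocytes, went from 0.3 and 1 to 8.9 and 8.3 RPKM (log2 fold change 3.05). Of 14 tested marginal zone and B1 cell genes, Cd36 was the only one to rise, and Dtx1 and Tm6sf1 fell. Over all tested genes 1.78% rose and 1.41% fell.

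Of 24 tested cytokine receptor genes 2 rose and 1 fell, against 1.78% and 1.41% of all tested genes. Il9r, the interleukin 9 receptor, was at 3.3 and 9.4 RPKM in wild type and at 43 and 80.8 in the mutant (log2 fold change 3.28, SE 0.44, adjusted p = 0.0116), and at 191 and 185 in the ZnF1 mutant, a difference between the mutants that did not pass (ZnF4 minus ZnF1 -1.66 with adjusted p = 0.0835). Lifr, the receptor for leukaemia inhibitory factor, was at 3.6 and 2.3 RPKM in wild type and at 18.9 and 14.4 in the mutant (log2 fold change 2.33, SE 0.31, adjusted p = 0.0116). Il2ra, known as CD25 and a marker of the pre-B stage, fell from 9.9 and 13.1 to 2.2 and 1.5 RPKM (log2 fold change -2.36, SE 0.29, adjusted p = 0.00832). The median of the list was 0.01. Another pair of signalling genes rose: Rasgrp3, which couples the B cell receptor to Ras, at 34.7 and 31.2 RPKM in wild type and at 63.8 and 82.8 in the mutant (log2 fold change 1.13, SE 0.15, adjusted p = 0.0116), and Pmaip1, or Noxa, a BH3-only promoter of apoptosis, at 3.1 and 2.3 RPKM in wild type and at 9.2 and 10.2 in the mutant (log2 fold change 1.68, SE 0.19, adjusted p = 0.00658).

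In absolute terms the largest gain was that of Fgd2, an exchange factor for Cdc42, at 127 and 112 RPKM in wild type and at 254 and 234 in the mutant (log2 fold change 1.03, SE 0.14, adjusted p = 0.0115). It was followed by Igll1, Cd36, Rassf4, a Ras association domain gene at 31.4 and 34.9 RPKM in wild type and at 106 and 96.7 in the mutant (log2 fold change 1.6), and Cyp27a1. Syngr2, a vesicle protein gene, was at 65.9 and 68.5 RPKM in wild type and at 115 and 135 in the mutant (log2 fold change 0.88), and Zfp385a, a zinc finger gene, at 14.4 and 18.2 RPKM in wild type and at 55.3 and 44.9 in the mutant (log2 fold change 1.59). Syngr2 was no longer called with a term for sex (adjusted p = 0.0648). Fgd2 was high in the ZnF1 mutant too, at 210 and 200 RPKM (ZnF4 minus ZnF1 0.25 with adjusted p = 0.373).

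Abundant B cell genes were among those that fell. Tnfrsf13c, the BAFF receptor on which mature B cells depend, was at 418 and 434 RPKM in wild type and at 243 and 236 in the mutant (log2 fold change -0.83, SE 0.15, adjusted p = 0.0358). Crip1, a LIM protein gene, was at 239 and 215 RPKM in wild type and at 62 and 79.9 in the mutant (log2 fold change -1.68, SE 0.16, adjusted p = 0.00549). Dusp2, a phosphatase that switches off MAP kinases, was at 234 and 198 RPKM in wild type and at 80.5 and 93.6 in the mutant (log2 fold change -1.30, SE 0.16, adjusted p = 0.00821), and Slfn2, a Schlafen gene known for keeping lymphocytes quiescent, at 147 and 143 RPKM in wild type and at 52 and 66.3 in the mutant (log2 fold change -1.29, SE 0.16, adjusted p = 0.00821). In each of these the mutant libraries lay below both wild-type libraries. Cd24a, a surface glycoprotein of immature B cells, fell from 127 and 147 to 77.8 and 61 RPKM (log2 fold change -0.98), Arhgap25, a Rac GTPase activator, from 115 and 117 to 55.5 and 64.1 (log2 fold change -0.95), and Pqbp1, which binds splicing factors, from 104 and 140.1 to 69.3 and 66.1 (log2 fold change -0.83). Tnfrsf13c, Cd24a and Pqbp1 no longer passed with a term for sex (adjusted p = 0.139, 0.0839 and 0.153), and Cd24a and Pqbp1 did not with quantile normalization (adjusted p = 0.0607 and 0.0811). Cd24a was low in the ZnF1 mutant too, at 70.4 and 77.6 RPKM (ZnF4 minus ZnF1 -0.10 with adjusted p = 0.79).

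On the log2 scale the steepest falls were of genes at lower levels. Steap4, a metalloreductase, was at 6.3 and 7.5 RPKM in wild type and at 0.4 and 0.6 in the mutant (log2 fold change -2.89, SE 0.19, adjusted p = 0.00261), and at 12.9 and 11.6 in the ZnF1 mutant (ZnF4 minus ZnF1 -3.68 with adjusted p = 0.00046), so that it lay lowest in the ZnF4 mutant. Actr3b, an actin-related protein gene, was at 5.6 and 5.2 RPKM in wild type and at 0.4 and 0.2 in the mutant (log2 fold change -2.89, SE 0.28, adjusted p = 0.00549), and the ZnF1 libraries were low as well, at 1 and 0.6 (ZnF4 minus ZnF1 -0.69 with adjusted p = 0.216). Lrrc32, which holds latent TGF-beta at the surface, fell from 4.3 and 2.6 to 0.1 and 0.1 RPKM (log2 fold change -2.68, SE 0.29, adjusted p = 0.00616). A secreted and a matrix protein gene fell: Reln, from 5.6 and 8.1 to 1.6 and 0.8 RPKM, and Emid1, from 33.1 and 42.8 to 10.5 and 9.3. Gpr174, a lysophosphatidylserine receptor, went from 17.1 and 10.3 to 2.8 and 3.2 RPKM (log2 fold change -1.98), and Tnfrsf26 from 5.2 and 4 to 0.8 and 0.9 (log2 fold change -1.91). Rapgef4, an exchange factor that senses cyclic AMP, went from 7.5 and 5.5 to 0.9 and 1.9 (log2 fold change -1.92). Cox6a2, a subunit of cytochrome c oxidase, fell from 3.9 and 12.5 to 0.9 and 0.8, with a wide gap between the wild-type libraries. Gpr174, Rapgef4 and Cox6a2 lost their calls with a term for sex (adjusted p = 0.111, 0.106 and 0.117). Emid1 was low in the ZnF1 mutant too, at 8.6 and 6.6 RPKM (ZnF4 minus ZnF1 0.37 with adjusted p = 0.317).

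**Figure D3:**
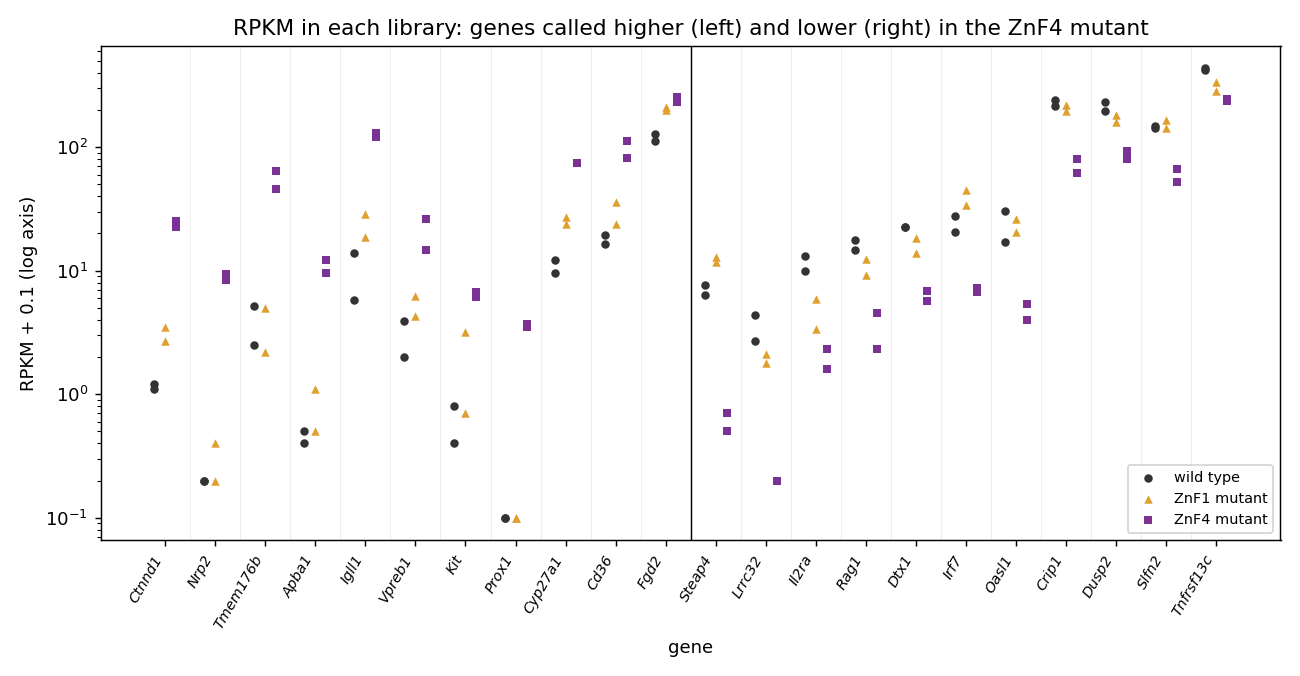
RPKM + 0.1 on a log axis in each of the 6 libraries for 11 genes that rose (left) and 11 that fell (right) in the ZnF4 mutant, 1 point per library. The purple ZnF4 points lie above both black wild-type points for every gene at the left and below both for every gene at the right; Prox1 is listed at 0 in wild type.

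Of 23 tested transcription factors of the B lineage 0 rose and 2 fell, against 1.78% and 1.41% of all tested genes: Sfpi1, which encodes PU.1, at 78.3 and 78.8 RPKM in wild type and at 45.6 and 44.7 in the mutant (log2 fold change -0.79, SE 0.11, adjusted p = 0.0133), and Foxo1, at 79.7 and 72.3 RPKM in wild type and at 47.8 and 39.5 in the mutant (log2 fold change -0.80, SE 0.16, adjusted p = 0.0492). The call of Foxo1 ended with a term for sex (adjusted p = 0.0987) and with quantile normalization (adjusted p = 0.0856). Pax5, which fixes B cell identity, was at 297 and 442 RPKM in wild type and at 252 and 293 in the mutant (adjusted p = 0.389), and Ikzf3, the Ikaros relative Aiolos, at 288 and 308 RPKM in wild type and at 338 and 281 in the mutant (adjusted p = 0.906). Neither passed, and the median of the list was -0.27. Of 13 tested NuRD complex genes 0 passed in limma and 4 had an unadjusted p under 0.05, against 17.4% of all tested genes. Changes lay below 0 in 11 of the 13, with a median of -0.19, while 47.2% of all tested genes lay above 0. Chd4, the remodelling ATPase of NuRD, was at 141 and 133 RPKM in wild type and at 112 and 90.6 in the mutant (log2 fold change -0.44, SE 0.14, adjusted p = 0.167).

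Notch-related expression showed 1 change. Dtx1, or Deltex, a Notch target that marks marginal zone B cells and their precursors, was at 22.6 and 22.5 RPKM in wild type and at 5.6 and 6.7 in the mutant (log2 fold change -1.80, SE 0.17, adjusted p = 0.00549), and below the ZnF1 libraries at 18.3 and 13.8 as well (ZnF4 minus ZnF1 -1.31 with adjusted p = 0.0078). It was the only one of 16 tested Notch pathway genes that passed, against 3.2% of all tested genes, and the median of the 16 was -0.15. Tm6sf1, a membrane protein gene taken here as a marginal zone marker, fell from 23.9 and 22.5 to 11.5 and 12.3 RPKM (log2 fold change -0.93, SE 0.12, adjusted p = 0.0098).

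Interferon response genes lay lower in the mutant as a list, with 5 of 30 tested members called lower and 0 higher, against 1.41% and 1.78% of all tested genes. Irf7, the factor that amplifies type I interferon responses, was at 20.4 and 27.4 RPKM in wild type and at 6.6 and 7.1 in the mutant (log2 fold change -1.72, SE 0.19, adjusted p = 0.00656). Oasl1, an antiviral oligoadenylate synthetase-like gene, was at 17.1 and 30.2 RPKM in wild type and at 3.9 and 5.3 in the mutant (log2 fold change -2.20, SE 0.28, adjusted p = 0.00909). Rtp4 fell from 10.6 and 21.1 to 3.4 and 4 RPKM (log2 fold change -1.89), Cmpk2, a mitochondrial nucleotide kinase gene, from 20.1 and 31.7 to 9.1 and 9.2 (log2 fold change -1.42), and Ifit3, whose promoter is printed above, from 1.3 and 2.9 to 0.1 and 0.2 (log2 fold change -1.93). In all 5 the lower of the wild-type libraries was above both mutant libraries, and wild-type replicate 2 was the higher one. The ZnF1 mutant had Irf7 at 45.1 and 33.8 RPKM, and the mutants differed (ZnF4 minus ZnF1 -2.43 with adjusted p = 0.00205). Rtp4, Cmpk2 and Ifit3 did not pass with a term for sex (adjusted p = 0.0663, 0.0571 and 0.146). Their log2 fold changes with that term were -1.89, -1.38 and -1.80.

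Across the 30 tested interferon genes, 28 changes were below 0 and the median was -0.64, against -0.02 over all tested genes. In 23 of the 30, both mutant libraries lay below both wild-type ones, as in 27.2% of all tested genes, and 50.4% did not overlap in one direction or the other. The size of the median rests on the wild-type libraries, which lay apart for this list: it was -1.06 without wild-type replicate 1 and -0.38 without replicate 2. The 2 changes above 0 did not pass. Ifih1 was at 1.1 and 1.9 RPKM in wild type and at 1.8 and 1.6 in the mutant (log2 fold change 0.17, adjusted p = 0.804). Ifitm3 was at 3 and 5.5 RPKM in wild type and at 9.3 and 13.3 in the mutant (log2 fold change 1.34, adjusted p = 0.273). In the ZnF1 mutant Ifitm3 was at 10.1 and 38.3. A pair of abundant genes outside the list that are known to respond to interferon also fell: Ifi27l2a from 194 and 269 to 73.6 and 104 RPKM (log2 fold change -1.38), and Sp100, of nuclear bodies, from 199 and 218 to 111 and 107 (log2 fold change -0.93). With a term for sex neither Ifi27l2a nor Sp100 passed (adjusted p = 0.119 and 0.0522).

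Genes of cell cycle entry were lower where they passed. Of 16 tested G1 cyclin and Cdk inhibitor genes 3 fell and 0 rose, against 1.41% and 1.78% of all tested genes. Ccnd3, the D cyclin on which dividing pre-B cells depend, was at 48.7 and 53.3 RPKM in wild type and at 24 and 27 in the mutant (log2 fold change -0.99, SE 0.12, adjusted p = 0.00859), and E2f2, a factor of S phase entry, at 89 and 113 RPKM in wild type and at 45.6 and 39.6 in the mutant (log2 fold change -1.23, SE 0.15, adjusted p = 0.00883). Cdkn1a, the p21 inhibitor of cyclin-dependent kinases and a target of p53, fell as well, from 4.7 and 6.1 to 1.2 and 1.6 RPKM (log2 fold change -1.63, SE 0.20, adjusted p = 0.00909). The 3 genes that fell are known for promoting the cycle (Ccnd3 and E2f2) and for inhibiting it (Cdkn1a), and the median of the list was -0.32. That median was -0.51 without wild-type replicate 1 and -0.17 without replicate 2.

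Of 29 tested DNA replication and mitosis genes 0 passed in limma, and 11 had an unadjusted p under 0.05, against 17.4% of all tested genes. Of the 29 changes, 28 lay below 0, with a median of -0.49, and in 25 both mutant libraries lay below both wild-type ones, as in 27.2% of all tested genes. Top2a, the topoisomerase of dividing cells, was at 29.9 and 40.2 RPKM in wild type and at 20.5 and 16.3 in the mutant (log2 fold change -0.91, SE 0.19, adjusted p = 0.057), and Aurkb, a mitotic kinase, at 11.1 and 16.1 RPKM in wild type and at 7.3 and 6.1 in the mutant (log2 fold change -0.95, SE 0.24, adjusted p = 0.0912). The Mcm helicase genes had small differences, such as -0.23 for Mcm2, and Tyms was the exception at 0.47. The median was -0.32 without wild-type replicate 2. Members of such a list vary together, so their number is not independent support.

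**Figure D4:**
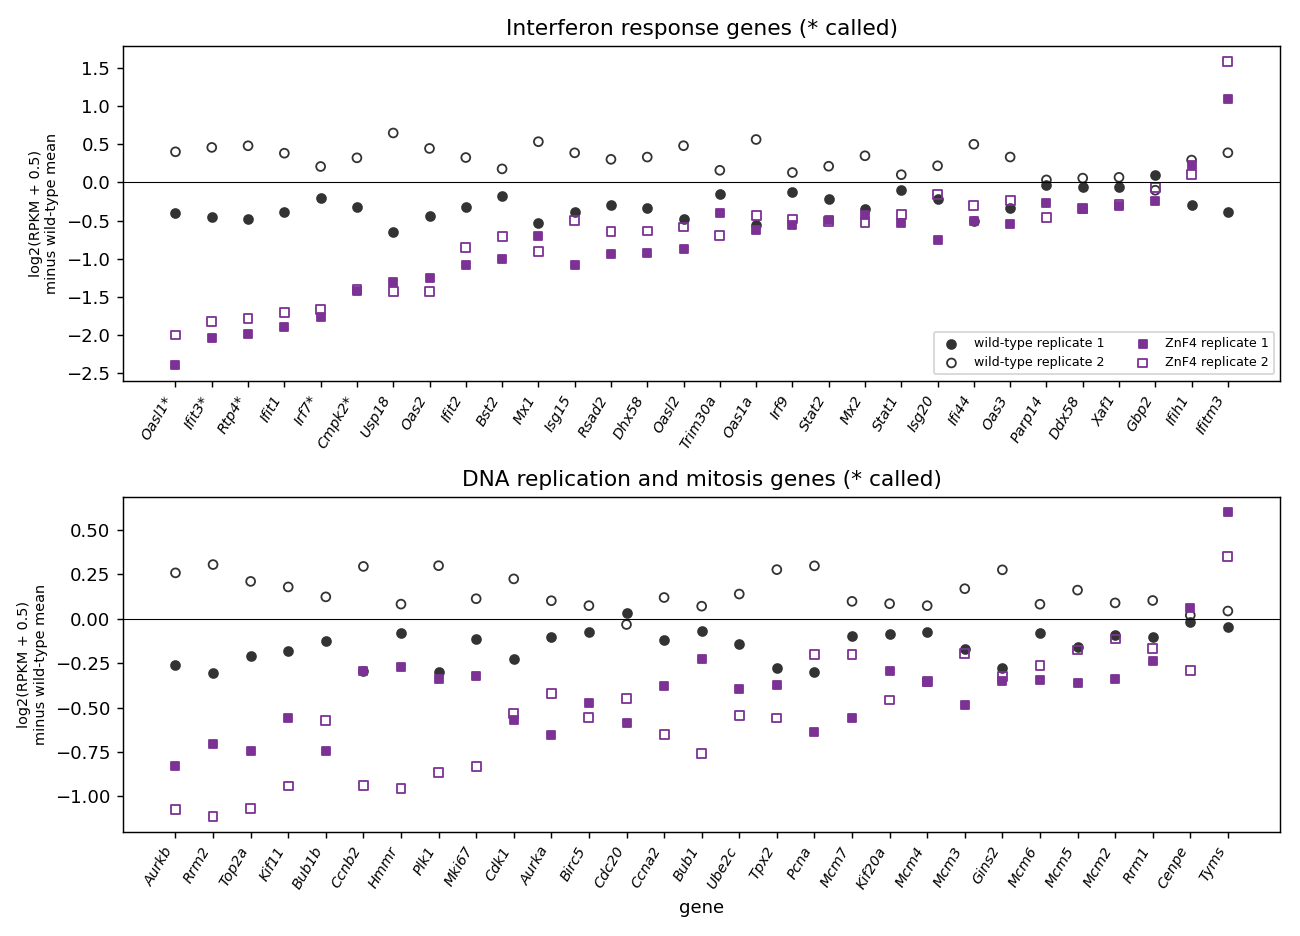
Log2(RPKM + 0.5) of each tested interferon response gene (top) and each tested DNA replication and mitosis gene (bottom) in the wild-type and ZnF4 libraries, minus the wild-type mean of that gene, with 1 point per library and genes ordered by their change. Mutant squares lie below both wild-type circles for 23 of 30 genes at the top and 25 of 29 at the bottom, and wild-type replicate 2 is the higher circle for most interferon genes.

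Immediate early and activation genes were lower where they passed. Of 24 tested, 4 fell and 0 rose, against 1.41% and 1.78% of all tested genes. Dusp2, given above, was 1 of them. Dusp5, another MAP kinase phosphatase, fell from 16.5 and 21.8 to 8.2 and 7.1 RPKM (log2 fold change -1.26). Egr1, a factor induced within minutes of receptor signalling, fell from 33.5 and 38.5 to 22.9 and 20.2 (log2 fold change -0.73), and Fosb, an AP-1 subunit, from 3.9 and 2.4 to 1 and 0.6 (log2 fold change -1.48). Dusp5, Egr1 and Fosb did not pass with a term for sex (adjusted p = 0.0607, 0.104 and 0.137), nor did Egr1 with quantile normalization (adjusted p = 0.062). In the ZnF1 mutant Dusp5 was at 11.5 and 8.1 RPKM and Egr1 at 21.5 and 18.8. For both, ZnF4 minus ZnF1 did not pass (adjusted p = 0.45 and 0.774). Fos itself had 1 high library, with 97.5 and 26 RPKM in wild type and 17.1 and 21.8 in the mutant (adjusted p = 0.241). The list's median of -0.51 became -0.18 without wild-type replicate 1, -0.67 without replicate 2, -0.35 without ZnF4 replicate 1 and -0.33 with a term for sex.

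Each of the remaining B cell lists had 1 or 2 calls, read against 3.2% of all tested genes. Of 26 tested B cell receptor signalling genes, Rasgrp3 alone passed, and the median was -0.10. Of 22 tested BAFF, CD40 and NF-kB genes, Tnfrsf13c fell and Traf1, an adaptor induced by CD40, rose from 4.6 and 3.6 to 8.8 and 15.6 RPKM (log2 fold change 1.42), a call that a term for sex ended (adjusted p = 0.104). Of 16 tested Toll-like receptor genes 2 rose: Tlr2, which senses bacterial lipoproteins, at 7.6 and 7.4 RPKM in wild type and at 14.8 and 16.8 in the mutant (log2 fold change 1.02, SE 0.15, adjusted p = 0.0168), and Ticam2, the TRAM adaptor, at 5.7 and 6.3 RPKM in wild type and at 12.8 and 12.1 in the mutant (log2 fold change 1.0, SE 0.14, adjusted p = 0.0148). Of 15 tested follicular and transitional genes, Cd24a and Tnfrsf13c fell and 0 rose. Of 12 tested Bcl2 family genes, Pmaip1 was the 1 that passed. Traf1, Tlr2 and Rasgrp3 were also higher in both ZnF1 libraries than in both wild-type ones. For each of them ZnF4 minus ZnF1 did not pass (adjusted p = 0.548, 0.546 and 0.176).

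MHC class II presentation genes lay above 0 in 12 of 12 tested members, against 47.2% of all tested genes, with a median of 0.41. In limma 0 passed, and 2 had an unadjusted p under 0.05, against 17.4% of all tested genes. The median was 0.08 without ZnF4 replicate 2 and 0.74 without ZnF4 replicate 1, so it rests on 1 mutant library. Ctss, the protease that trims the invariant chain, was at 329 and 269 RPKM in wild type and at 366 and 517 in the mutant (adjusted p = 0.269). In the plasma cell list 0 of 11 tested genes passed in limma, and 2 had an unadjusted p under 0.05. Nearest to the threshold there was Slamf7, a surface marker, at 29.4 and 28.9 RPKM in wild type and at 42 and 45.9 in the mutant (adjusted p = 0.0522), and it stood above the ZnF1 mutant (ZnF4 minus ZnF1 1.04 with adjusted p = 0.0052). Igj, the joining chain of secreted antibody, was at 414 and 1.1 RPKM in wild type and at 71.9 and 65.2 in the mutant, so wild-type replicate 1 alone was high. Homing receptor (15 tested), glycolysis (13), sterol synthesis (16) and cytosolic ribosomal protein genes (69) also had 0 calls in limma, with medians of -0.04, 0.02, 0.12 and 0.06. In these lists 4, 1, 2 and 3 genes had an unadjusted p under 0.05, against 17.4% of all tested genes.

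**Figure D5:**
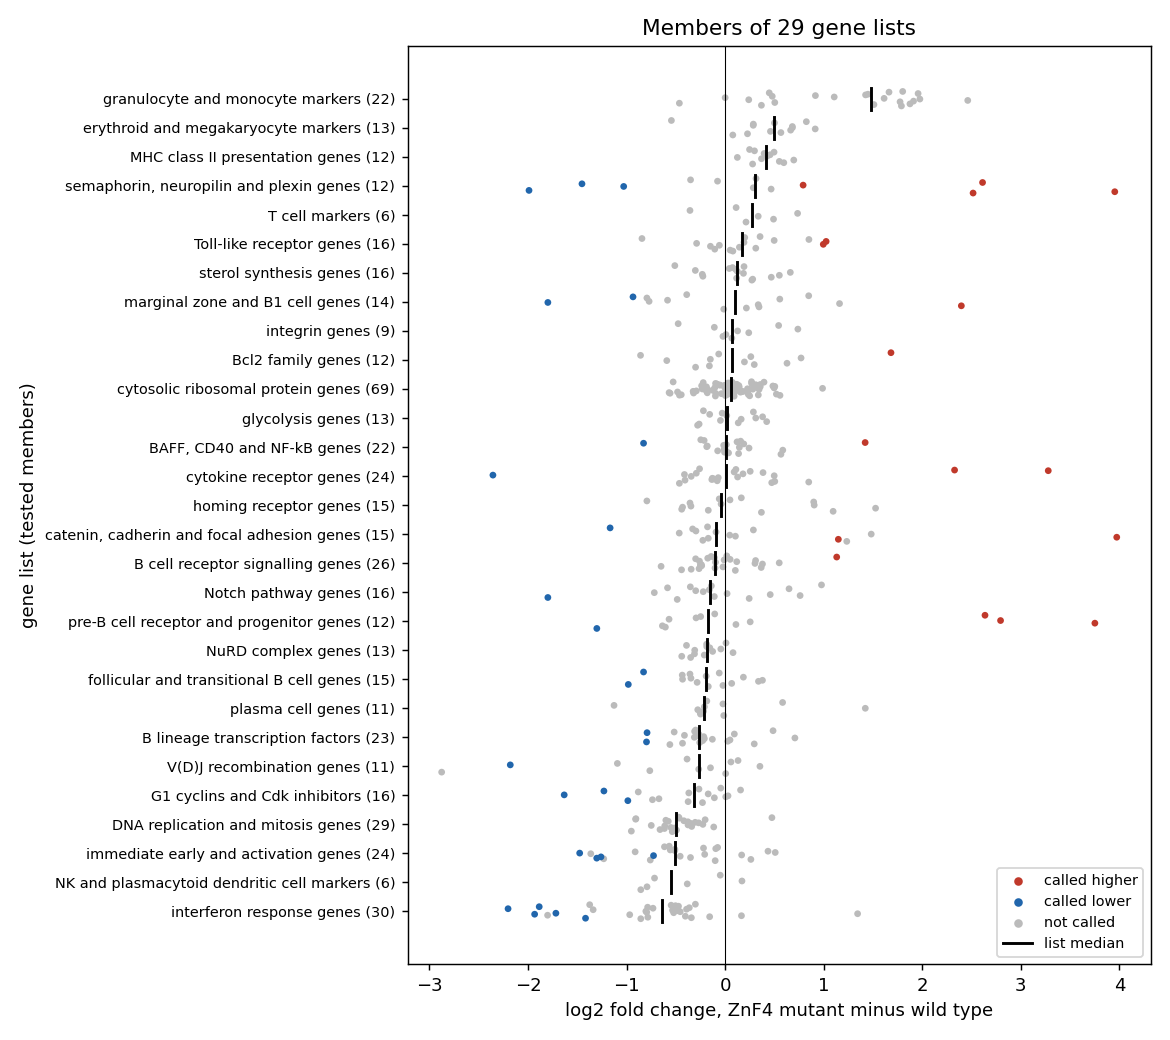
Log2 fold change of the ZnF4 mutant against wild type for each tested member of 29 gene lists, 1 point per gene, with the list's median as a black bar and the number of tested members in brackets. Calls in both directions stand beside each other in the semaphorin list, the interferon list has 5 lower calls and 0 higher, and the marker list of granulocytes and monocytes has the highest median with 0 calls.

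Markers of granulocytes and monocytes were higher in both mutant libraries, without a member passing. Of 24 listed, 23 were in the table. The summed level of the granulocyte and monocyte markers was 515 and 819 RPKM in wild type, against 1941 and 2147 with finger 4 lost and 1584 and 8618 with finger 1 lost. S100a8, a granulocyte protein gene, was at 119 and 188 RPKM in wild type and at 525 and 428 in the mutant. Of 22 tested markers 21 had changes above 0 (47.2% of all tested genes did), with a median of 1.48. In 17 both mutant libraries lay above both wild-type ones (23.1% of all tested genes did). In limma 0 passed, with 8 at an unadjusted p under 0.05, against 17.4% of all tested genes. The median was 0.97 without wild-type replicate 1, 1.98 without replicate 2 and 0.83 with a term for sex. Erythroid and megakaryocyte markers summed to 279 and 305 RPKM in wild type and 299 and 424 in the mutant, with a median change of 0.50 that was -0.02 without ZnF4 replicate 2 and -0.49 with a term for sex. T cell markers summed to between 33.0 and 37.4 RPKM in the 4 libraries, and Cd3d, Cd3e and Cd3g each stayed under 1 and Trat1 was listed at 0 there. Neither list had a member at an unadjusted p under 0.05. The 6 tested NK and plasmacytoid dendritic cell markers had 0 calls in limma, 2 at an unadjusted p under 0.05 and a median of -0.55.

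ZnF1 replicate 2, which held the most granulocyte RNA, is set beside the called genes here. All 22 tested granulocyte and monocyte markers were over 2-fold higher there than in ZnF1 replicate 1, and all 22 were above their ZnF4 mean. Of the 184 genes that rose, 6 were over 2-fold higher in ZnF1 replicate 2 than in ZnF1 replicate 1 (3.26%, against 3.83% of all tested genes), and 5 were above their ZnF4 mean there. The 6 were App, Igf1r, Kit, Rnd3, Sema4a and Tmem176b. The ZnF1 libraries share in the estimated spread, so genes that differ between them pass less easily. When only the 4 wild-type and ZnF4 libraries were fitted, 359 genes were higher, and 77 of them (21.4%) were over 2-fold higher in ZnF1 replicate 2 than in ZnF1 replicate 1. The part of other cells in the remaining results was not tested.

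Some genes that changed were neighbours on the chromosome. By gene order in GRCm38.p6, 14 of 5913 neighbouring pairs of tested genes had both members called. Of these, 7 pairs rose together: Igll1 and Vpreb1, Tmem176b and Tmem176a, Tfpi and Ctnnd1, Kdelc1 and Bivm, Pld2 and Mink1, Tpsg1 and Cacna1h, and Slc15a3 and Tmem132a. Another 4 fell together: Mapk11 and Plxnb2, Cpne5 and Ppil1, Tm6sf1 and Hdgfrp3, and Leprotl1 and Tmem66. In 3 pairs the members moved in opposite directions: Trim7 rose beside Irgm1, Fgd2 beside Pim1 and Itm2a beside Gpr174. Of 262 called genes with a tested neighbour, 28 had a called one (10.7%), against 369 of 8202 tested genes (4.50%). Annotated spans overlap in 4 of the pairs, Tmem176b and Tmem176a, Tpsg1 and Cacna1h, Slc15a3 and Tmem132a, and Tm6sf1 and Hdgfrp3, where reads may be counted for both. With a term for sex the calls of Bivm, Pld2, Tpsg1, Slc15a3, Tfpi, Plxnb2, Ppil1, Hdgfrp3, Trim7, Pim1, Itm2a and Gpr174 ended, with adjusted p between 0.053 and 0.137.

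Among the neighbours, Cacna1h, a T-type calcium channel gene, lay on opposite sides of wild type in the 2 mutants. Its level was 3.9 and 3.9 RPKM in wild type and 20 and 15 in the mutant (log2 fold change 2.02, SE 0.19, adjusted p = 0.00549), and 0.6 and 0.6 in the ZnF1 mutant (ZnF4 minus ZnF1 4.02 with adjusted p = 0.000387). Tpsg1, a neighbouring mast cell tryptase gene, was at 0.7 and 0.4 RPKM in wild type and at 3.3 and 2.7 in the mutant and at 0.1 and 0.1 with finger 1 lost. Tfpi, an inhibitor of blood clotting that lies beside Ctnnd1, was at 0.6 and 0.5 RPKM in wild type and at 2.3 and 2.8 in the mutant (log2 fold change 1.54, SE 0.27, adjusted p = 0.0309), far below the level of Ctnnd1. Rhbdf1 and Il9r rose on either side of Snrnp25, a minor spliceosome gene, which was at 18.6 and 24.3 RPKM in wild type and at 26 and 41.1 in the mutant (log2 fold change 0.61, SE 0.22, adjusted p = 0.219) and did not pass. Of 298 tested genes on the X chromosome 16 were called (5.37%), against 3.2% of all tested genes. Sex differed between the groups, since ZnF4 replicate 2 alone of the 4 libraries lacked Xist, and with a term for sex 9 genes on the X chromosome were called (3.02%), against 1.66% of all tested genes.

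At the edge of the threshold, Nrip1, a nuclear receptor corepressor gene (adjusted p = 0.0495), Dtx3l, a ubiquitin ligase gene (0.0496), and 2810417H13Rik (0.0497) were just inside. Hps3 (0.05), Gypc (0.0501) and Dntt (0.0514) were just outside. The number of calls moved with which libraries were fitted. It was 594 with only the 4 wild-type and ZnF4 libraries. Without 1 wild-type library limma called 11 (without replicate 1) or 3 genes (without replicate 2), and without 1 ZnF4 library it called 0, with 1551 genes (without replicate 1) or 1219 (without replicate 2) at an unadjusted p under 0.05 against 1800 with all libraries. A term for sex left 171 calls, 167 of them among the 330, in a fit with 2 residual degrees of freedom against 3.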

How the data were processed

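Poly(A)-enriched RNA of sorted IgM-positive bone marrow B cells was sequenced by the submitters in 6 libraries, per the labels' protocols. The authors deposited RPKM values for 26531 RefSeq transcripts. Per the submitters' processing notes the build was mm9 and TopHat and bedtools were used, with versions not given in the sources used here. Whether counting used strand is not stated. The rounded RPKM did not give back whole reads, so the depth is unknown and values carry neither counting intervals nor floors. The labels give no batch or date.

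Each gene name was represented by its transcript of highest mean RPKM. Values were taken as log2(RPKM + 0.5) without further scaling, with genes kept at a mean of at least 1 RPKM. limma 3.58.1 (R 4.3.3) fitted the 3 genotype means over the 6 libraries (intensity trend, two-sided moderated test, 3 residual degrees of freedom), and p was adjusted by the Benjamini-Hochberg method over 10322 genes. The fit was also run on simulated data with independent normal noise. That simulation had no difference in sex or in the mixture of cells, so it is not used as support for the calls. The 29 gene lists (621 members listed, 522 tested, 502 different genes, of which 42 were called) were described without a test. Neighbours and promoters came from RefSeq tables of GRCm38.p6, which matched 9880 of the 10322 tested genes by name, and no coordinates of that build were joined to the mm9 values.

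The members and lists were chosen with earlier results of these data known. The rule for named genes took Ikzf1; the steepest 20 rises and 20 falls among called genes whose groups did not overlap and whose higher mean was at least 3 RPKM; the 10 largest gains and 10 largest losses of RPKM; from each list at most 4 called genes, or 2 of smallest p where none was called; the 5 called genes whose mutant libraries lay farthest apart; called neighbours; and the 3 genes on either side of the threshold. Among the falls, 4 names without a gene symbol were skipped, and not every gene the rule took is reported here. Other genes named were chosen after their values were seen. Alternatives were other pseudocounts, filters, a scaling, a transcript choice, a replicate block, a term for sex, the 4 libraries alone and each library left out.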

Additional observations from a re-analysis of the deposited data

How the results depend on the processing

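The count of 330 called genes moved by over 1.5 times with the samples: 594 genes were called when only the 4 wild-type and ZnF4 libraries were fitted, 171 with a term for sex, and between 0 and 591 when 1 library was left out. The lowest counts were without either ZnF4 library (0 each) and without wild-type replicate 2 (3) or 1 (11), and the highest were without ZnF1 replicate 1 (591) or 2 (585). Leaving out 1 library of a group leaves a lone sample, which is assumed to vary like the other groups. The counts lay within 1.5 times of 330 at pseudocounts of 0.1 (328) and 1 RPKM (322), without a filter (269), with a minimum of 3 RPKM (268), with quantile normalization (277) and with the longest transcript (267). Without a filter only 47 of the 330 genes were called and 73.6% of calls were higher, against 55.8% in the reported fit, while the minimum of 3 RPKM gave 49.6% higher.

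Same-numbered libraries correlated in their deviations with r = -0.03 (wild type and ZnF4), 0.28 (wild type and ZnF1) and 0.21 (ZnF1 and ZnF4). With 2 libraries per genotype these values cannot show whether the replicate numbers pair the samples. A replicate block gave 327 calls, 290 of them among the 330.

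No named gene changed direction. Of 131 named genes, of which 101 were called, 36 lost the call with a term for sex, 83 without a filter and 13 with quantile normalization. All 101 lost it without either ZnF4 library, 91 when wild-type replicate 1 was left out and 98 when replicate 2 was. The cause was not tested.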
